A study of Mus musculus with 7 samples.

Results

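The 34 genes described here encode the enzymes of glycolysis, the transporters and regulators around it, the hypoxia-responsive transcription factor Hif1a and a set of hypoxia targets. They were taken by name from the count tables, which together list 28719 gene symbols. Of the 34 members, 14 are glycolytic enzymes, 6 act in transport and regulation, 1 is the transcription factor and 13 are hypoxia targets. In all, 27 members were listed in all 7 tables and 33 had at least 1 unique molecular identifier (UMI, a tag that marks 1 captured transcript) in the cells kept. Ak4, a mitochondrial adenylate kinase, had 0 UMIs in every library and condition.

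Neutrophils positive for Ly6G and CD11b were sorted from male C57BL/6J mice and profiled by droplet-based single-cell RNA-seq. Healthy blood, bone marrow and spleen came from untreated mice in 2 runs, with 1 library per tissue and run, and the mice were 6 weeks old in run 1 and 8 weeks old in run 2. The inflammation library held 5 conditions from mice aged 8 weeks, each marked by a hashtag antibody and pooled from 3 mice: untreated blood, blood and joint lavage of mice given 150 µl of K/BxN serum on days 0 and 2 and taken on day 7, lung lavage 3 h after 25 ng of intranasal IL-1β, and peritoneal lavage 3 h after 25 ng of intraperitoneal IL-1β. K/BxN serum transfer gives an arthritis driven by transferred antibodies. Stimulus, site and time therefore differ together between the joint and the IL-1β sites, and age cannot be told apart from run in the healthy tissues.

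Glycolysis breaks glucose down to pyruvate, and lactate dehydrogenase then regenerates the NAD that the pathway consumes, so that ATP can be made without oxygen. Hif1a encodes the oxygen-regulated subunit of a transcription factor that binds short motifs near its target genes. Prolyl hydroxylases of the Egln family mark this subunit for degradation when oxygen is present, and its targets include most glycolytic enzymes, glucose and lactate transporters, Vegfa and the Egln genes themselves. Neutrophils hold few mitochondria and are known to rely on glycolysis for much of their ATP.

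Cells were kept by the share of S100a8 and S100a9 in the healthy libraries (at least 3% of UMIs, 12755 of 16907 cells) and by a granulocyte class in the deposited cell table in the inflammation library (4852 of 4856 cells). The kept cells held 1360064 to 9104133 UMIs per healthy library and 942688 to 10293966 per condition, with 292 cells in the peritoneum, 380 in the lung and 2857 in the joint. All 15 genes of a neutrophil list were detected in each library and condition. Genes of immature neutrophils (7 genes) were summed as CPM, a gene's counts scaled to a common total of UMIs. The sum was 26799 CPM in blood, 107287 in bone marrow and 105926 in spleen of run 1, and 4516, 78381 and 17729 CPM in the same tissues of run 2, so that the spleen of run 1 lay at the level of bone marrow. Blood of run 2 stood apart by 30348 CPM of 6 erythroid genes, against 252 to 912 in the other healthy libraries. Between 0 and 36 cell barcodes were shared by any pair of the 7 libraries. The lung condition carried 66.6 CPM of Scgb1a1, a gene of airway secretory cells, and the other conditions between 0 and 0.371 CPM. The study's text lists the cell numbers of the lung and peritoneum in the opposite order to the deposited labels. The deposited labels were used, and if they were exchanged, every lung value given here would be a peritoneal value and the reverse.

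The first question was how the arthritic joint on day 7 differed from the lung and peritoneum 3 h after IL-1β. Joint neutrophils had higher levels of a run of glycolytic enzymes, of the lactate exporter Slc16a3 and of several hypoxia targets, among them Mif, Bnip3 and Higd1a. Glut1 (Slc2a1), Pfkfb3, Egln3 and Hif1a did not share this pattern. Each condition is 1 pool of cells in 1 library, so that no test was made, a CPM is computed from counts summed over cells, and intervals cover counting error only. A ratio of 2 between conditions was taken as the limit for a count. It was applied to genes with a mean of at least 20 CPM over the 5 conditions, which 28 of the 34 members reached. Summed counts cannot tell more cells with a transcript from more transcript per cell. The 7 genes of immature neutrophils summed to 882 CPM in the joint, 4418 in the lung and 11930 in the peritoneum, with Fcnb, one of the 7, at 0 in all 5 conditions, and their part in the ratios was not tested.

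Against the lung, 18 of the 28 members were at least 2-fold higher in the joint, where 26.2% of all genes were, and 1 was at least 2-fold lower, where 7.84% of all genes were. Against the peritoneum, 13 were at least 2-fold higher, beside 27.1% of all genes, and 1 was at least 2-fold lower, beside 8.38%. Both comparisons use the same joint cells. The 13 members that were at least 2-fold higher in both comparisons make up 46.4% of the members counted, against 16.7% of all 3889 genes. They comprise 5 of 12 glycolytic enzymes counted (Aldoa, Tpi1, Gapdh, Pgam1 and Pkm), 2 of 5 genes of transport and regulation (Slc16a3 and Slc2a3) and 6 of 10 hypoxia targets (Vegfa, Hilpda, Bnip3, Ankrd37, Higd1a and Mif). No member was at least 2-fold lower in the joint than in both sites by total UMIs, a pattern that 5.17% of all genes had. Hilpda, Ankrd37 and Vegfa are in these counts but reached the mean of 20 CPM only through the joint, where they are high. The counts without them are therefore the ones to read. With the mean taken over the other 4 conditions for every gene, a filter added after seeing the data, 10 of 25 members (40%) were at least 2-fold higher in the joint than in both sites, against 15.4% of 3853 genes, and 3 of 7 hypoxia targets were among them. By the same filter 15 of 25 were at least 2-fold higher than in the lung, beside 24.9% of all genes, and 10 of 25 than in the peritoneum, beside 25.6%.

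Glycolytic enzymes and hypoxia targets were both shifted further than the bulk of genes. The median log2 ratio of joint to lung was 1.15 for the enzymes, 1.82 for the hypoxia targets and 0.46 for all genes. The median log2 ratio of joint to peritoneum was 0.89 for the enzymes, 1.26 for the hypoxia targets and 0.49 for all genes. Summed over the list, the 14 enzymes reached 5274 CPM in the joint, 2011 in the lung and 2440 in the peritoneum, hence ratios of 2.62 (95% counting interval 2.52 to 2.73) and 2.16 (2.07 to 2.25). The 13 hypoxia targets summed to 1262 CPM in the joint, 519 in the lung and 606 in the peritoneum, with ratios of 2.43 (2.25 to 2.63) and 2.08 (1.92 to 2.27). The ratios of the 2 sums thus lay close together. Without Hilpda, Ankrd37 and Vegfa, by the filter on the other 4 conditions, the median log2 ratio of the hypoxia targets was 1.52 to the lung and 0.97 to the peritoneum.

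These sizes depend on how the conditions are scaled. Scaling by TMM factors, which set aside the genes with the most extreme ratios, in place of total UMIs moved the median log2 ratio of all genes from 0.46 to 0.12 for joint to lung and from 0.49 to 0.14 for joint to peritoneum. With TMM, 14 members were at least 2-fold higher and 3 lower than in the lung (16.3% and 11.3% of all genes), and 8 were higher and 2 lower than in the peritoneum (16.6% and 12.1%). The 8 members that then stayed at least 2-fold higher against both sites were Tpi1, Pgam1, Slc16a3, Vegfa, Hilpda, Bnip3, Higd1a and Mif, 28.6% of the members counted against 9.44% of all genes. By the filter on the other 4 conditions these were 6 of 25 members, against 8.49% of all genes. Also with TMM factors, Pfkfb3 and Egln3 were at least 2-fold lower in the joint than in both sites, which was 7.14% of the 28 members counted against 7.43% of all genes, and 8% of 25 against 7.89% by the filter on the other 4 conditions. Relative to the median of all genes, 10 of 12 enzymes and 8 of 10 hypoxia targets were higher against the lung, and 8 of 12 and 7 of 10 against the peritoneum, a count that a scaling factor cannot change. By the filter on the other 4 conditions, which leaves out the 3 targets that passed through the joint, these counts were 11 of 12 and 5 of 7 against the lung and 8 of 12 and 4 of 7 against the peritoneum.

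**Figure D1:**
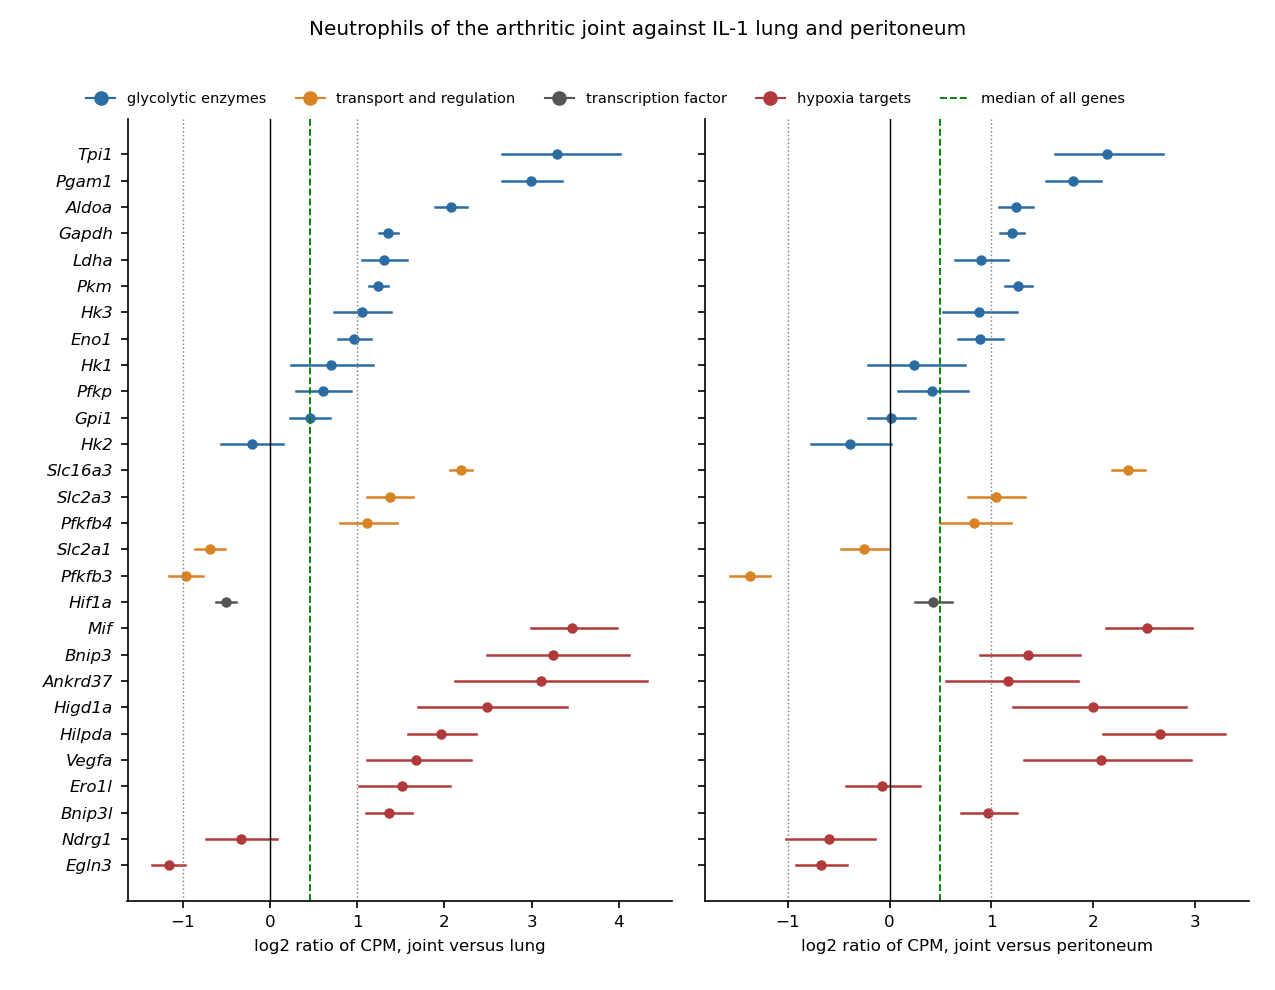
Log2 ratio of CPM in joint neutrophils to lung (left) and to peritoneum (right) for the 28 members with a mean of at least 20 CPM, with 95% counting intervals, coloured by role. Dotted lines mark 2-fold and the green dashed line the median of all genes (0.46 and 0.49). Tpi1, Pgam1, Slc16a3 and Mif lie far to the right in both panels, and Pfkfb3, Slc2a1 and Egln3 lie to the left of 0.

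Among the glycolytic enzymes counted, Tpi1, Pgam1 and Aldoa were furthest apart between the joint and the lung. Tpi1, which interconverts the triose phosphates, had 51.6 CPM in healthy blood, 42 in arthritic blood, 149 in the joint, 15.1 in the lung and 33.9 in the peritoneum. The ratio of joint to lung was 9.82 (95% counting interval 6.34 to 16.1), and that of joint to peritoneum 4.38 (3.09 to 6.43). The joint value exceeded that of each of the other 4 conditions.

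Pgam1, the phosphoglycerate mutase, had 125 CPM in healthy blood, 108 in arthritic blood, 428 in the joint, 53.7 in the lung and 123 in the peritoneum. Joint to lung was 7.97 (6.3 to 10.2) and joint to peritoneum 3.48 (2.89 to 4.22). As for Tpi1, the lung was the lowest condition and the joint the highest. Aldoa, the aldolase that splits fructose bisphosphate, had 470.3 CPM in healthy blood, 589 in arthritic blood, 770.3 in the joint, 183 in the lung and 326 in the peritoneum, with ratios of 4.2 (3.7 to 4.8) to the lung and 2.37 (2.11 to 2.66) to the peritoneum. Its joint value was the highest of the 5, and the ratio of joint to arthritic blood was 1.31 (1.24 to 1.38).

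Gapdh, which makes the first NADH of the pathway, had 615 CPM in healthy blood, 1103 in arthritic blood, 1479 in the joint, 577 in the lung and 644 in the peritoneum. The joint exceeded the lung by a ratio of 2.56 (2.38 to 2.76) and the peritoneum by 2.3 (2.12 to 2.49), and arthritic blood lay between them. Pkm, the pyruvate kinase of most tissues outside liver, had 575 CPM in healthy blood, 688 in arthritic blood, 1241 in the joint, 525 in the lung and 517 in the peritoneum, hence 2.36 (2.19 to 2.56) and 2.4 (2.19 to 2.63). With TMM factors the ratios to the peritoneum of Aldoa (1.85), Gapdh (1.8) and Pkm (1.88) were under 2, with the joint still higher.

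Of the other enzymes counted, Ldha and Hk3 passed 2-fold against the lung, and none did against the peritoneum. Eno1 (enolase), Ldha (lactate dehydrogenase) and Hk3, a hexokinase of myeloid cells, had joint to lung ratios of 1.95, 2.48 and 2.07, and joint to peritoneum ratios of 1.85, 1.86 and 1.83. Hk1 and the platelet-type phosphofructokinase Pfkp lay between 1.18 and 1.62 against either site. Hk2 was slightly lower in the joint, at 0.863 (0.678 to 1.11) to the lung and 0.765 (0.587 to 1.01) to the peritoneum, with both intervals spanning 1. Pfkl and Pgk1 did not reach a mean of 20 CPM and were not counted, with 4.49 and 4.35 for joint to lung.

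Gpi1, the glucose phosphate isomerase, was lower in the joint than in blood. It had 475 CPM in healthy blood, 501 in arthritic blood, 179 in the joint, 130.2 in the lung and 177 in the peritoneum, so that both blood conditions were above all 3 inflamed sites. The joint to lung ratio was 1.38 (1.18 to 1.62) and the joint to peritoneum ratio 1.01 (0.862 to 1.19). Reads of several of these genes (Gapdh, Pgam1, Eno1, Ldha, Pgk1, Tpi1, Aldoa, Pkm and Mif) can match near-identical copies elsewhere in the genome, so that their levels are uncertain.

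**Figure D2:**
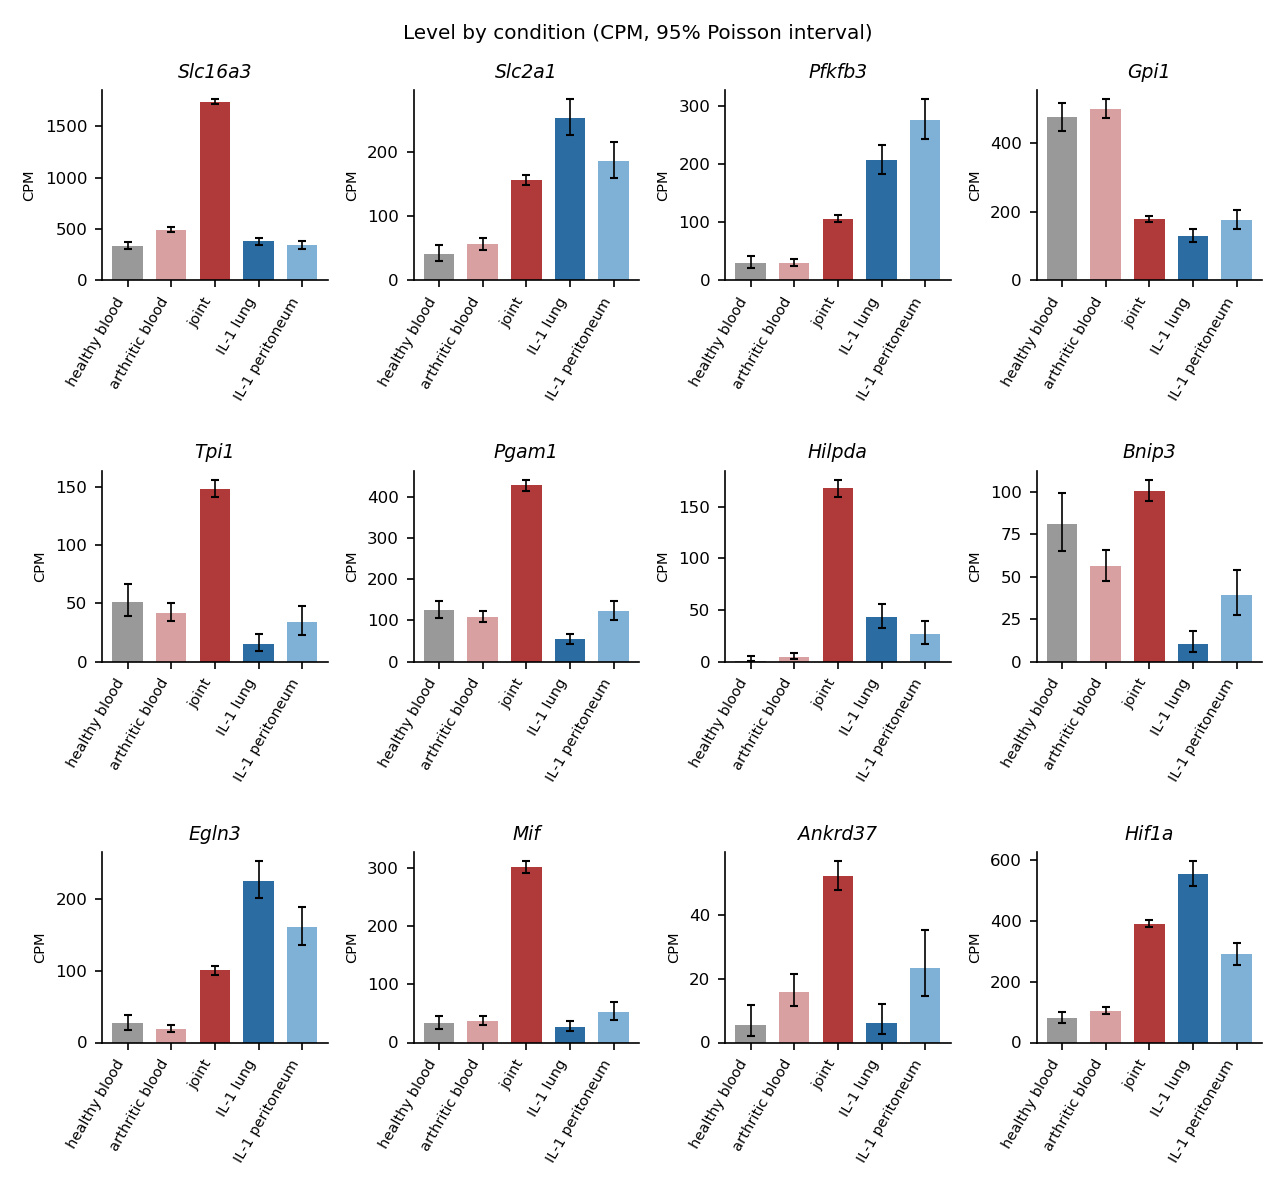
CPM of 12 members in each of the 5 conditions of the inflammation library (bars), with exact 95% Poisson intervals. Slc16a3, Tpi1, Pgam1, Hilpda, Mif and Ankrd37 are highest in the joint, Slc2a1, Pfkfb3 and Egln3 are highest at an IL-1β site, and Gpi1 is highest in blood.

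Genes of transport and regulation did not share 1 pattern. Slc16a3, the monocarboxylate transporter that exports lactate, had 339 CPM in healthy blood, 495 in arthritic blood, 1741 in the joint, 382 in the lung and 343 in the peritoneum. The ratio of joint to lung was 4.55 (4.17 to 4.99) and that of joint to peritoneum 5.08 (4.55 to 5.69). By total UMIs the lung and peritoneum did not differ from healthy blood beyond counting error, at ratios of 1.13 (0.986 to 1.29) and 1.01 (0.87 to 1.18). With TMM factors these ratios were 2.11 and 1.9, so that they depend on the scaling.

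The glucose transporters differed from each other. Slc2a1, the widely used GLUT1, had 41.8 CPM in healthy blood, 56.4 in arthritic blood, 156 in the joint, 253 in the lung and 186 in the peritoneum, so that the lung was the highest condition and the ratio of joint to lung was 0.618 (0.549 to 0.698). Slc2a3 (GLUT3), a transporter of high affinity, had 376 CPM in healthy blood, 441 in arthritic blood, 241 in the joint, 93.1 in the lung and 117 in the peritoneum. Its 2 blood conditions were the highest, and the joint exceeded the lung (2.59, 2.16 to 3.13) and the peritoneum (2.06, 1.71 to 2.52), although the latter ratio was 1.61 with TMM factors.

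The kinases and phosphatases that set fructose 2,6-bisphosphate, an activator of phosphofructokinase, also differed. Pfkfb3 had 30.2 CPM in healthy blood, 30.4 in arthritic blood, 107 in the joint, 208 in the lung and 277 in the peritoneum. Both IL-1β sites were above the joint, with ratios of 0.512 (0.449 to 0.587) for joint to lung and 0.385 (0.336 to 0.443) for joint to peritoneum. Pfkfb4 had 239 CPM in healthy blood, 196 in arthritic blood, 138 in the joint, 63.6 in the lung and 77.4 in the peritoneum, with joint to lung at 2.17 (1.74 to 2.73) and joint to peritoneum at 1.78 (1.41 to 2.28). Pdk1, a kinase that inhibits pyruvate dehydrogenase, was low, at 22.9 CPM in the joint and 2.27 to 4.24 CPM elsewhere. The sum of the list depended on Slc16a3. The 6 genes summed to 2406 CPM in the joint and 1002 in the lung (ratio 2.40, 2.27 to 2.54). Without Slc16a3 the ratio was 1.07 (0.997 to 1.15) to the lung and 1.01 (0.926 to 1.09) to the peritoneum.

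Hif1a itself was not highest in the joint. It had 80.9 CPM in healthy blood, 104 in arthritic blood, 390.1 in the joint, 555 in the lung and 289.6 in the peritoneum, so that all 3 inflamed sites were above both blood conditions. Joint to lung was 0.703 (0.65 to 0.762) and joint to peritoneum 1.35 (1.19 to 1.53), neither reaching 2-fold. Hif1a protein is regulated mainly by its stability, which these counts do not measure.

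The hypoxia targets that were higher in the joint span secreted factors, mitochondrial proteins and lipid storage. Their promoters are shown because these 6 genes were higher in the joint together, with the 250 bases before the first listed start of transcription from RefSeq (GRCm38.p6) on the strand of the gene. Capitals mark ACGTG, the core of the motif that HIF binds, and the related GCGTG, each on either strand. Matches that overlap, or that read the same on both strands, count separately. The windows are chr17:46032378-46032627 on the reverse strand for Vegfa, chr6:29272238-29272487 on the forward strand for Hilpda, chr7:138909507-138909756 on the reverse strand for Bnip3, chr8:45999851-46000100 on the reverse strand for Ankrd37, chr9:121857797-121858046 on the reverse strand for Higd1a and chr10:75860278-75860527 on the reverse strand for Mif.
Vegfa: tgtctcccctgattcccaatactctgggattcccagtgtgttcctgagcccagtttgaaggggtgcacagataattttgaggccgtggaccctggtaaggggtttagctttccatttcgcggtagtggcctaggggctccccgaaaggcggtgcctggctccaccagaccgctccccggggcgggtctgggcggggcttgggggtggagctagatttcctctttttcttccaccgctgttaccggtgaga
Hilpda: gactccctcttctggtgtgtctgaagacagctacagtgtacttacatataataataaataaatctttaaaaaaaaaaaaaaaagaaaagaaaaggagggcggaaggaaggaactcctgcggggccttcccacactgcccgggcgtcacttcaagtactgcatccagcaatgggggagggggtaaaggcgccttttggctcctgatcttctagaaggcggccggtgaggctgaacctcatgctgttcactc
Bnip3: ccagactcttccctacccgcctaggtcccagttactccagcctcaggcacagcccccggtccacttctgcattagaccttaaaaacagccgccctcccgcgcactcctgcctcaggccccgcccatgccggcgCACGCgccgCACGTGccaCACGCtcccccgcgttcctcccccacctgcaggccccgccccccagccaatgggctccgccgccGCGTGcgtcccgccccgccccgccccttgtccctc
Ankrd37: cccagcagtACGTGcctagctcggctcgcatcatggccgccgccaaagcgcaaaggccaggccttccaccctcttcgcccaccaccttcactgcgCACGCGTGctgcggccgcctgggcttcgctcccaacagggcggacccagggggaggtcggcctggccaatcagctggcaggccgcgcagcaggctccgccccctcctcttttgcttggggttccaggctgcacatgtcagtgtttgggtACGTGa
Higd1a: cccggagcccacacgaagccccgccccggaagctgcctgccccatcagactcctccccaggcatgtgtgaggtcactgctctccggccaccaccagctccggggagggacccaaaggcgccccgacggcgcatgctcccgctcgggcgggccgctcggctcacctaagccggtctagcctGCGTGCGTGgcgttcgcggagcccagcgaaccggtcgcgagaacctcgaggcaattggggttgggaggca
Mif: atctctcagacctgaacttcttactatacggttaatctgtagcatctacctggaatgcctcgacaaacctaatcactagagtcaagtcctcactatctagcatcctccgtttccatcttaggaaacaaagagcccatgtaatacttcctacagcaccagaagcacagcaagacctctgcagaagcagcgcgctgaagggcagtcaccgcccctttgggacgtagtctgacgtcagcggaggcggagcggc

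Bnip3 held 2 matches of ACGTG, which are both strands of 1 palindrome, and 3 of GCGTG, Ankrd37 held 2 of each, Higd1a held 0 and 2, and Vegfa, Hilpda and Mif held neither in this window. Vegfa and Hilpda each have 2 listed starts, and the other 4 genes have 1. Over all members, 30 of 34 matched the promoter table and 22 of these 30 held at least 1 of the 2 motifs. Of 27025 genes with a window of the same length, 16.6% held ACGTG, 28.2% held GCGTG and 38.6% held at least 1 of them. Slc2a3, Bnip3l, Ero1l and Ndrg1 were without an entry. A match describes letters and is not a measured binding site, and enhancers further away were not searched.

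Hilpda, a lipid droplet protein that inhibits lipolysis, had few counts in blood. It had 0.889 CPM in healthy blood, 4.46 in arthritic blood, 168 in the joint, 43.1 in the lung and 26.5 in the peritoneum. The ratios of joint to lung and to peritoneum were 3.89 (2.98 to 5.15) and 6.32 (4.27 to 9.8). In healthy blood only 1 UMI was counted, which gives a joint to healthy blood ratio of 189 (33.8 to 7454), or 62.9 with the count set to 3.

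Mif, a secreted cytokine that also has tautomerase activity, had 32.9 CPM in healthy blood, 36.8 in arthritic blood, 301 in the joint, 27.3 in the lung and 52 in the peritoneum. The joint stood above the other 4 conditions, at 11 (7.95 to 15.8) times the lung and 5.78 (4.36 to 7.84) times the peritoneum. Bnip3, a receptor for removal of mitochondria, had 80.9 CPM in healthy blood, 56.1 in arthritic blood, 101 in the joint, 10.6 in the lung and 39.2 in the peritoneum, and its lung level was the lowest. The ratios were 9.49 (5.63 to 17.4) to the lung and 2.56 (1.85 to 3.66) to the peritoneum.

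Its relative Bnip3l was less far apart, with 2.57 (2.15 to 3.1) and 1.96 (1.63 to 2.38). Vegfa, the growth factor of blood vessels, had 28.4 CPM in healthy blood, 16.7 in arthritic blood, 62.9 in the joint, 19.7 in the lung and 14.9 in the peritoneum, with 3.19 (2.16 to 4.93) and 4.23 (2.5 to 7.78). Ankrd37, an ankyrin repeat protein, had 5.33 CPM in healthy blood, 16 in arthritic blood, 52.3 in the joint, 6.06 in the lung and 23.3 in the peritoneum, and its joint to peritoneum ratio of 2.24 (1.46 to 3.6) was 1.75 with TMM factors. Here the lung and healthy blood were the low conditions, with 8 and 6 UMIs.

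Higd1a, a mitochondrial protein of the respiratory chain, had 81.8 CPM in healthy blood, 37.1 in arthritic blood, 55.1 in the joint, 9.84 in the lung and 13.8 in the peritoneum. Healthy blood rather than the joint was highest for this gene, and the joint exceeded the lung (5.6, 3.25 to 10.6) and peritoneum (3.99, 2.32 to 7.55). P4ha1, a collagen prolyl hydroxylase, had 4.44 CPM in healthy blood, 4.46 in arthritic blood, 40.8 in the joint, 2.27 in the lung and 14.9 in the peritoneum, and Egln1 had 28.4 CPM in healthy blood, 16.3 in arthritic blood, 28 in the joint, 7.57 in the lung and 4.24 in the peritoneum, both below the mean of 20 CPM needed for a count. With 3 UMIs of P4ha1 in the lung, its joint to lung ratio was 18 (6.11 to 87.5).

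Other targets were not higher in the joint than at both IL-1β sites. Egln3, a prolyl hydroxylase of the HIF subunit, had 26.7 CPM in healthy blood, 18.9 in arthritic blood, 101 in the joint, 226 in the lung and 161 in the peritoneum, and the joint lay below the lung (0.446, 0.392 to 0.509) and the peritoneum (0.627, 0.528 to 0.748). Ndrg1, a stress-responsive protein, had 113 CPM in healthy blood, 63.1 in arthritic blood, 36.5 in the joint, 46.2 in the lung and 55.2 in the peritoneum, highest in healthy blood. Ero1l, an oxidase of the endoplasmic reticulum, had 16.9 CPM in healthy blood, 11.5 in arthritic blood, 71.6 in the joint, 25 in the lung and 75.3 in the peritoneum, so that joint and peritoneum did not differ beyond counting error (0.951, 0.744 to 1.23) while the lung was lower.

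Against healthy blood of the same library, 6 members were at least 2-fold higher and 8 lower at both the lung and the peritoneum by total UMIs. In the lung 6 of 28 members were at least 2-fold higher and 11 lower, beside 12.1% and 43.9% of all genes. In the peritoneum 8 were higher and 8 lower, beside 12.2% and 44.9% of all genes. These comparisons share the healthy blood cells. Slc2a1, Pfkp, Pfkfb3, Hif1a, Hilpda and Egln3 were at least 2-fold higher at both sites, 21.4% of the members counted against 9.18% of all genes. With TMM factors Hk1, Ero1l and Ankrd37 joined these 6, giving 32.1% of the members against 19.3% of all genes. Hilpda and Ankrd37 passed through the joint alone, and by the filter on the other 4 conditions 5 of 25 members (20%) were higher at both sites, against 9.47% of all genes, and 7 of 25 (28%) with TMM factors, against 19.6%.

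Among these 6, Pfkfb3 reached 6.89 (4.81 to 10.1) in the lung and 9.16 (6.39 to 13.5) in the peritoneum, Egln3 8.49 (5.82 to 12.8) and 6.05 (4.07 to 9.27), and Hif1a 6.86 (5.51 to 8.62) and 3.58 (2.81 to 4.59). Slc2a1 stood at 6.05 (4.45 to 8.4) and 4.44 (3.2 to 6.27). Pfkp, which had 24.9 CPM in healthy blood, 23.4 in arthritic blood, 106 in the joint, 69.6 in the lung and 79.6 in the peritoneum, stood at 2.8 (1.82 to 4.44) and 3.2 (2.05 to 5.13). These are a glucose transporter, a phosphofructokinase, a kinase that makes its activator, and parts of the oxygen-sensing pathway.

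At both sites 8 members were at least 2-fold lower than healthy blood, namely Slc2a3, Hk3, Gpi1, Pfkfb4, Bnip3, Bnip3l, Ndrg1 and Higd1a, 28.6% of members against 36.1% of all genes. Gpi1 stood at 0.274 (0.23 to 0.326) in the lung and 0.373 (0.312 to 0.445) in the peritoneum, Slc2a3 at 0.248 (0.201 to 0.303) and 0.31 (0.249 to 0.384), and Pfkfb4 at 0.266 (0.206 to 0.341) and 0.324 (0.246 to 0.421). Hk3 stood at 0.352 and 0.398, from 179 CPM in healthy blood to 62.8 and 71.1 CPM, and Bnip3l at 0.374 and 0.491, from 255 to 95.4 and 125 CPM. Of the 28 members counted, Higd1a stood furthest below blood at both sites, at 0.12 (0.0617 to 0.216) and 0.169 (0.0865 to 0.303).

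The lower side depends on the scaling. With TMM factors the median log2 ratio of all genes moved from -0.83 to 0.07 in the lung and from -0.86 to 0.05 in the peritoneum, and the members at least 2-fold apart became 10 higher and 4 lower in the lung (24.4% and 17.0% of all genes) and 11 higher and 1 lower in the peritoneum (24.4% and 16.6%). All 8 of the lower genes stayed below healthy blood at both sites with TMM factors, but Higd1a alone stayed 2-fold lower at both. For the enzymes the median log2 ratio of lung to healthy blood was -0.61 by total UMIs and 0.29 with TMM factors, so that it has no direction that holds under both scalings.

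In the joint 16 members were at least 2-fold higher than healthy blood and 2 lower, beside 10.6% and 18.2% of all genes. With TMM factors 19 were higher and 1 lower, beside 18.9% and 4.63%. By the filter on the other 4 conditions, which leaves out Hilpda, Ankrd37 and Vegfa, 13 of 25 were higher and 2 lower, beside 10.0% and 19.1% of all genes. The 2 lower genes were Gpi1 (0.377, 0.342 to 0.416) and Ndrg1 (0.324, 0.264 to 0.399). Ankrd37 (9.8, 4.47 to 26.8), Mif (9.14, 6.62 to 13), Slc16a3 (5.14, 4.64 to 5.7), Hif1a (4.82, 3.92 to 6), Pfkp (4.27, 2.93 to 6.45) and Ero1l (4.24, 2.69 to 7.08) were the members counted, beside Hilpda, that were more than 4-fold higher.

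Blood of arthritic mice had 2 of 28 members at least 2-fold apart from healthy blood, beside 5.36% of all genes. There 1 member was at least 2-fold higher, Ankrd37 at 2.99 (1.27 to 8.61), and 1 lower, Higd1a at 0.454 (0.339 to 0.609), beside 0.85% and 4.51% of all genes. With TMM factors, which moved the median log2 ratio of all genes from -0.33 to 0.13, 4 members were higher (Ankrd37, Gapdh, Hilpda and Slc16a3) and 0 lower, beside 3.14% and 0.797% of all genes. Under both scalings 10 of 12 enzymes lay above the median of all genes, as did 4 of 10 hypoxia targets. The summed enzymes had a ratio of arthritic to healthy blood of 1.23 (1.18 to 1.28), or 1.69 with TMM factors. Within arthritic mice, the joint against their blood had 14 members at least 2-fold higher and 1 lower, Gpi1 at 0.357 (0.333 to 0.384), beside 13% and 7.18% of all genes. By the filter on the other 4 conditions 11 of 25 were higher and 1 lower, beside 12.2% and 7.50%. The joint to arthritic blood ratio was 37.6 (21.5 to 73) for Hilpda, 8.18 (6.7 to 10.1) for Mif, 6.22 (4.34 to 9.22) for Ero1l and 5.34 (4.03 to 7.21) for Egln3.

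The 2 IL-1β sites were at least 2-fold apart in 5 of 28 members (17.9%), beside 15.8% of all genes. In the lung 0 of 28 were at least 2-fold higher than in the peritoneum, beside 7.64% of all genes, and 5 were lower, beside 8.13%. The 5 were Ankrd37 (0.259, 0.0999 to 0.605), Bnip3 (0.27, 0.135 to 0.511), Ero1l (0.332, 0.213 to 0.508), Pgam1 (0.437, 0.32 to 0.592) and Tpi1 (0.446, 0.242 to 0.804). Among the members counted, Hif1a was the furthest in the other direction, at 1.92 (1.67 to 2.21), short of 2-fold. All 5 were also at least 2-fold lower with TMM factors. Under both scalings 1 of 12 enzymes and 3 of 10 hypoxia targets lay above the median of all genes in the lung against the peritoneum. The summed enzymes had a ratio of lung to peritoneum of 0.824 (0.779 to 0.872), or 0.819 with TMM factors.

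Shares of cells with a transcript were compared at equal depth. Cells under 1000 UMIs were left out of the thinned shares, and the unthinned shares cover all kept cells. Those left out were 155 of 509 in healthy blood, 140 of 814 in arthritic blood, 123 of 2857 in the joint, 94 of 380 in the lung and 61 of 292 in the peritoneum. Binomial intervals treat the cells of 1 pool as independent. With each cell thinned to 1000 UMIs, which left 231 to 2734 cells per condition, Slc16a3 was seen in 72% (70.3 to 73.7, unthinned 93.3%) of joint cells, 28.7% (23.5 to 34.3, unthinned 49.7%) of lung cells and 22.6% (18.3 to 27.3, unthinned 46.8%) of healthy blood cells, with exact 95% binomial intervals. Mif was seen in 22.9% (21.3 to 24.5, unthinned 47.7%) of joint cells and 3.85% (1.94 to 6.78, unthinned 8.16%) of lung cells. Hif1a was seen in 28.9% (27.2 to 30.7, unthinned 62.3%) of joint cells and 40.6% (34.8 to 46.5, unthinned 68.4%) of lung cells. For Slc16a3 and Hif1a the order of the shares over the 5 conditions was that of the CPM, whereas for Mif the lung and healthy blood changed places.

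Hilpda was seen in 9.36% (8.3 to 10.5, unthinned 17.7%) of joint cells, 2.1% (0.774 to 4.51, unthinned 6.32%) of lung cells and in 0 of 354 thinned cells of healthy blood, which allows a share of cells with a UMI of up to 0.847% (3 counts) or 1.04% (exact interval). Of its UMIs in the joint, 84.8% lay in the top decile of cells, and 1 cell held 34. Slc16a3 was spread more evenly, with 28.5% of its UMIs in the top decile of joint cells. With 4852 of 4856 cells classed as granulocytes, no other cell type was at hand to measure what free RNA adds to these shares.

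**Figure D3:**
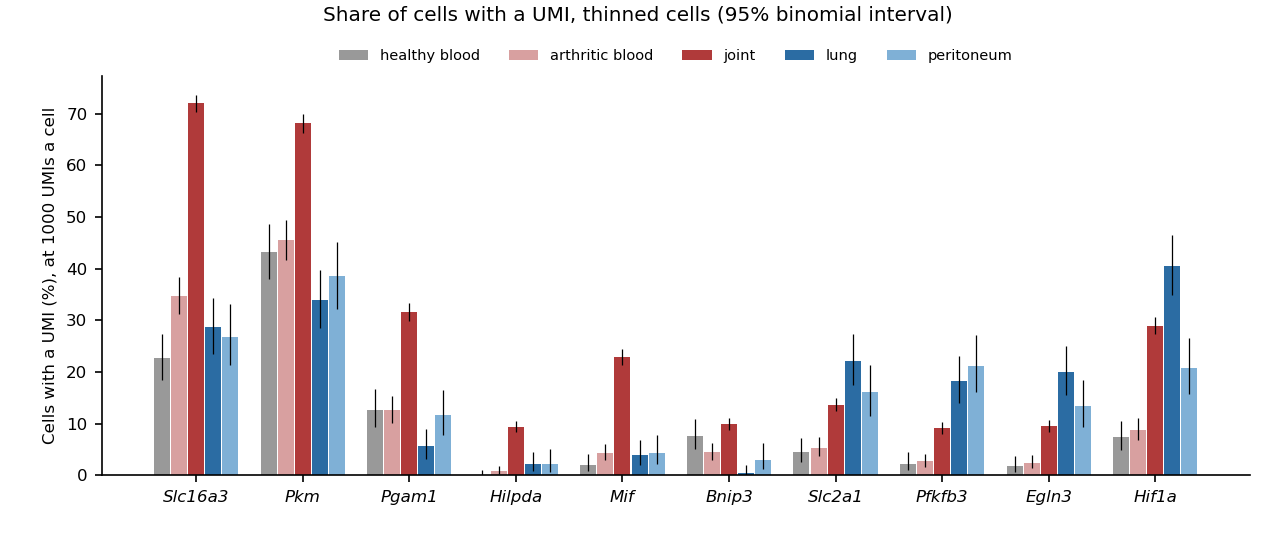
Share of cells with at least 1 UMI of 10 members after thinning each cell to 1000 UMIs, by condition, with exact 95% binomial intervals. Joint cells lead for Slc16a3, Pkm, Pgam1, Hilpda and Mif, and lung or peritoneal cells lead for Slc2a1, Pfkfb3, Egln3 and Hif1a.

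Other genes of these pathways were taken from 2 wider lists. Of 40 further genes of glycolysis and carbohydrate use, 12 were counted, and 2 were at least 2-fold higher in the joint than in both sites and 1 lower, beside 16.7% and 5.17% of all genes. The higher ones were Pgd of the pentose phosphate pathway, at 4.75 (3.79 to 6.02) to the lung and 2.84 (2.31 to 3.53) to the peritoneum, and Ugp2, which makes the precursor of glycogen, at 2.24 (1.69 to 3.02) and 2.31 (1.65 to 3.32). The lower one was Gyg, the primer of glycogen, at 0.303 (0.234 to 0.395) and 0.432 (0.31 to 0.616). Of 28 further hypoxia genes, 12 were counted, and 5 were higher in both comparisons: the chemokine receptor Cxcr4, the mitochondrial protein Fam162a, heme oxygenase Hmox1, the histone demethylase Kdm3a and the Myc antagonist Mxi1, beside the same 16.7% of all genes. Fam162a passed only through the joint, and by the filter on the other 4 conditions the other 4 genes remained of 11 counted, beside 15.4% of all genes. Joint to lung ratios of these 4 ran from 2.43 for Kdm3a to 4 for Mxi1, and joint to peritoneum ratios from 2.5 for Hmox1 to 6.92 for Cxcr4. With TMM factors Ugp2, Kdm3a and Hmox1 were under 2-fold in at least 1 of the comparisons, with the joint still higher.

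In healthy mice the question was how the same genes differ between bone marrow, blood and spleen. Bone marrow neutrophils had lower levels of 3 hypoxia targets, of Slc2a1 and of Pfkfb4 than blood neutrophils, and higher levels of Ero1l and Tpi1. By edgeR's quasi-likelihood test on counts summed per library, with the run as a block and 2 libraries per tissue, 7 of 32 members tested (21.9%) passed an adjusted p of 0.05, beside 21.7% of all genes. Of these, 2 were higher in bone marrow, beside 9.94% of 7809 genes, and 5 were lower, beside 11.7%. Hilpda and Ak4 did not pass the filter on low counts.

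Ankrd37 had 2.59 CPM in run 1 and 3.19 CPM in run 2 of bone marrow, against 22.1 and 24.7 CPM in blood, with the spleen at 7.81 and 24 CPM (log2 fold change -2.72 ± 0.35 SE, adjusted p = 0.00448). Bnip3 had 17.4 CPM in run 1 and 18.6 CPM in run 2 of bone marrow, against 69.1 and 66.9 CPM in blood, with the spleen at 33.9 and 52.6 CPM (log2 fold change -1.62 ± 0.22 SE, adjusted p = 0.00512). Slc2a1 had 7.3 CPM in run 1 and 11.4 CPM in run 2 of bone marrow, against 30.9 and 53.1 CPM in blood, with the spleen at 13 and 57.8 CPM (log2 fold change -1.87 ± 0.31 SE, adjusted p = 0.00912). For these 3 genes both bone marrow libraries lay below both blood libraries, and the spleen of run 1 lay nearer to bone marrow than the spleen of run 2 did.

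Pfkfb4 had 48.5 CPM in run 1 and 52 CPM in run 2 of bone marrow, against 146 and 134 CPM in blood, with the spleen at 57.3 and 97.1 CPM (log2 fold change -1.19 ± 0.21 SE, adjusted p = 0.0118). Ndrg1 had 14.8 CPM in run 1 and 15.4 CPM in run 2 of bone marrow, against 58.1 and 35.9 CPM in blood, with the spleen at 19 and 35.8 CPM (log2 fold change -1.30 ± 0.31 SE, adjusted p = 0.0261). Both were lower in bone marrow than in blood without overlap of the libraries. Ero1l had 21.4 CPM in run 1 and 35.8 CPM in run 2 of bone marrow, against 8.82 and 10.9 CPM in blood, with the spleen at 27.5 and 16.4 CPM (log2 fold change 1.81 ± 0.48 SE, adjusted p = 0.0373), and Tpi1 had 100.1 CPM in run 1 and 73.3 CPM in run 2 of bone marrow, against 51.5 and 52.6 CPM in blood, with the spleen at 70.3 and 53.7 CPM (log2 fold change 0.98 ± 0.26 SE, adjusted p = 0.0387). In these 2 genes the bone marrow libraries were the higher ones, although for Ero1l the spleen of run 1 exceeded bone marrow of run 1.

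**Figure D4:**
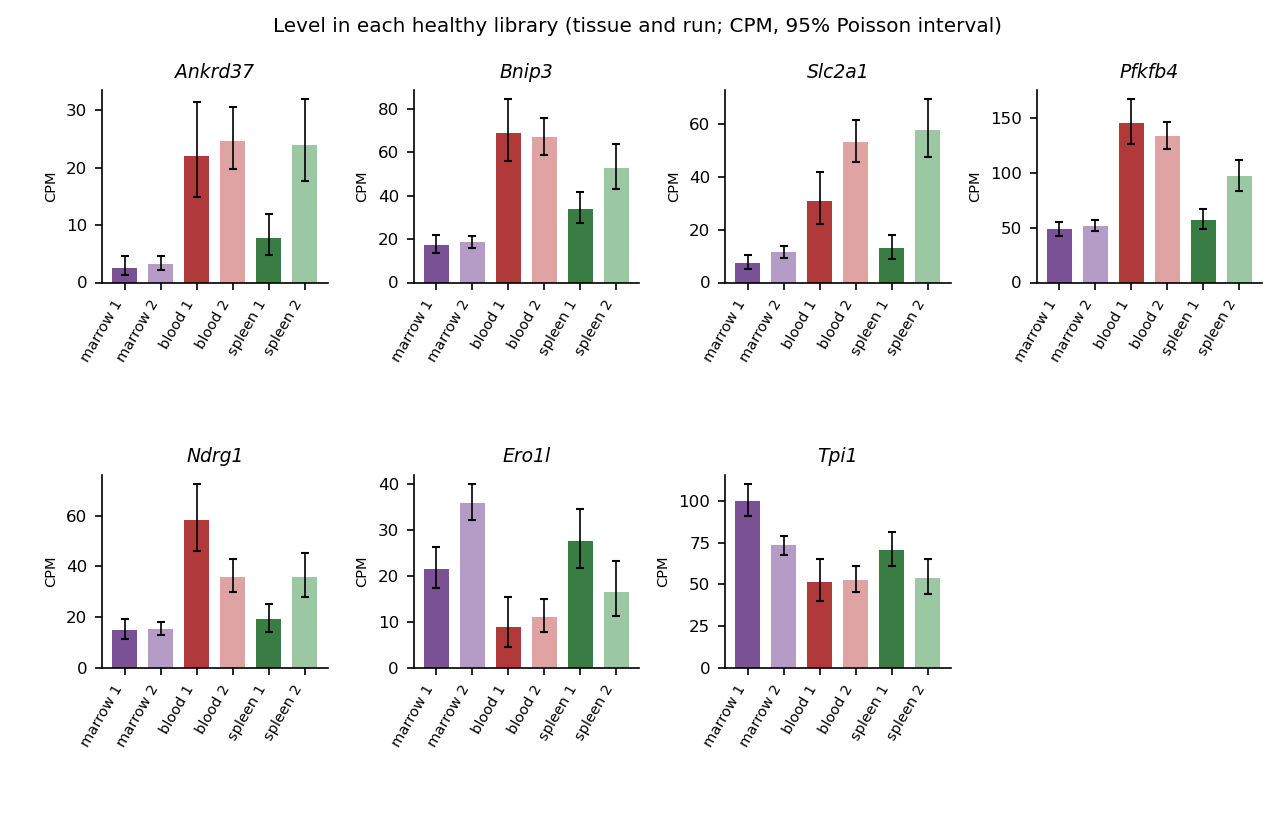
CPM of the 7 members called between bone marrow and blood, in each healthy library (tissue and run number), with exact 95% Poisson intervals that cover counting error only. Ankrd37, Bnip3, Slc2a1, Pfkfb4 and Ndrg1 are lower in both marrow libraries than in both blood libraries, and Ero1l and Tpi1 are higher.

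Few enzymes were called. Of 14 glycolytic enzymes, 1 was higher in bone marrow (Tpi1) and none was lower, with a median log2 fold change of 0.60, against 0.02 over all genes. Of 11 hypoxia targets tested, 1 was higher and 3 were lower, with a median of -1.02. Ldha missed the threshold (log2 fold change 0.97 ± 0.31 SE, adjusted p = 0.0629), as did Hif1a (log2 fold change -0.69 ± 0.24 SE, adjusted p = 0.0798). Of the 22 genes tested from the wider glycolysis and carbohydrate list, 7 were higher in bone marrow (Gbe1, Gyg, Gys1, Mpc2, Pdk3, Pgls and Tkt) and 2 lower (Mpc1 and Slc2a6), and of 16 from the wider hypoxia list 2 were higher (Anxa1 and Insig2) and 2 lower (Cxcr4 and Ppp1r3b), beside the same 9.94% and 11.7% of all genes. TMM factors shifted the log2 fold changes by 0.29 relative to scaling by total UMIs in this comparison, by 0.12 for spleen against blood and by 0.16 for bone marrow against spleen.

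Between spleen and blood 0 members were called, with 4 at an unadjusted p under 0.05 by edgeR and 0 called by DESeq2. By edgeR this stood beside 0% of genes higher and 0.0512% lower, and by DESeq2 beside 0.327% of genes called. Between bone marrow and spleen 0 members were higher, beside 0.512% of genes, and 1 was lower, beside 2.24%, namely Ankrd37 (log2 fold change -2.16 ± 0.36 SE, adjusted p = 0.0306). Slc2a1 (log2 fold change -1.52 ± 0.31 SE, adjusted p = 0.0568) and Bnip3 (log2 fold change -1.07 ± 0.22 SE, adjusted p = 0.0611) came next. The spleen libraries of runs 1 and 2 stood apart for Slc2a1, at 13 and 57.8 CPM, and for Mif, at 11.9 and 107 CPM.

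These calls rest on few libraries. Over 13 alternatives the call of Tpi1 was kept in 6 (adjusted p up to 0.390) and that of Ero1l in 8 (adjusted p up to 0.282, log2 fold change 0.93 to 2.37), whereas that of Bnip3 was kept in 11 and those of Ankrd37, Slc2a1 and Pfkfb4 in 10 each. For Ndrg1 the call was kept in 9, and for Ankrd37 between bone marrow and spleen in 7. Without the replicate block 1 of 32 members, Bnip3, was called between bone marrow and blood, beside 2.1% of all genes, and 0 between bone marrow and spleen, beside 0%. Without either of the 2 blood libraries 0 were called between bone marrow and blood, beside 0.655% of all genes without run 1 and 0% without run 2. Without either spleen library 17 of 32 (53.1%) were called, beside 30.0% of all genes without run 1 and 28.6% without run 2. In these fits the lone library of a tissue is assumed to vary like the others. Leaving out cells with over 1% of UMIs from erythroid, B-cell or T or NK markers, chosen after seeing the data, left 6 of 31 members called between bone marrow and blood, beside 18.6% of all genes, and 0 between bone marrow and spleen, beside 2.96%. This step removed 2480 of the 3672 kept cells from blood of run 2, and 1 to 21 cells from each other healthy library. The genes of immature neutrophils, all 7 detected in each library, were higher in both bone marrow libraries than in both blood libraries, and their part in these differences was not tested.

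Levels were not compared between the healthy libraries and the inflammation library, which differ in reagents and software version. Some members were listed differently by run. Gapdh was not listed in blood of run 1 and stood at 2.59 and 4.09 CPM in the other tables of run 1, against 745 to 821 CPM in run 2. Pgam1 behaved likewise, unlisted in blood of run 1, at 10.6 and 8.19 CPM elsewhere in run 1 and at 89.5 to 181 CPM in run 2. Vegfa, Hilpda, P4ha1 and Pdk1 were unlisted in at least 1 table of run 1, and the tables of run 1 list only genes with a count. With the genes listed in all 6 healthy tables alone, 9 of 27 members (33.3%) were called between bone marrow and blood, beside 30.9% of all genes, and 3 (11.1%) between bone marrow and spleen, beside 4.86%.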

How the data were processed

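Neutrophils were profiled by droplet-based 3′ single-cell RNA-seq. Per the labels and the study's methods, the authors aligned reads to mm10 and made UMI count tables with Cell Ranger 1.2.0 (run 1), 2.1.0 (run 2) and 3.0.2 (inflammation library). The deposited values are raw UMI counts per gene and cell, and a deposited cell table gives each cell's hashtag condition and class. Sources disagree on reagent version, instrument and joint site, and hashtag conditions were taken as deposited.

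Counts were summed over the kept cells of each library or condition and given as CPM of all UMIs. Healthy libraries were tested with edgeR 4.0.16 (R 4.3.3): filterByExpr, TMM, quasi-likelihood F test with tissue and run, Benjamini-Hochberg adjustment over 7809 genes, calls at 0.05. Within a run, all 3 tissues were taken from 1 set of mice. Deviations from tissue means over 7809 genes correlated between tissues at 0.597, 0.550 and 0.631. DESeq2 1.42.0 was an alternative. Both steps were tested on simulated data. The 5 conditions are 1 pool each and were not tested. Ratios carry exact 95% intervals, and counts under 3 were set to 3 for the 2-fold counts, as for Hilpda in healthy blood. Intervals assume independent molecules.

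The 34 members and all lists were chosen with earlier results of these data known. Members were named in full, with values per condition or library where they were called between healthy tissues, or at least 2-fold apart the same way in a pair of comparisons. Other members given with values were chosen after their values were seen. Promoters are from RefSeq, and no doublet caller was run. Alternatives were other scaling, filters, thresholds, cell selection, the run term, DESeq2 and leaving out each library. Sample columns left unused numbered 0.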

Additional observations from a re-analysis of the deposited data

Results flagged for a closer look

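For 4 of the 28 members counted, the joint and an IL-1β site lay on opposite sides of healthy blood under both scalings, with both 95% counting intervals excluding a ratio of 1 by total UMIs. Each condition is 1 pool and the comparisons share the healthy blood cells, so the difference was not tested. The share of all genes with this pattern was not counted, so that 4 of 28 cannot be read as a trait of the members. By total UMIs 43.9% of all genes were at least 2-fold lower in the lung than in healthy blood, and 10.6% at least 2-fold higher in the joint. Aldoa stood at 1.64 times healthy blood in the joint and at 0.390 in the lung (2.41 and 0.727 with TMM factors). Tpi1 stood at 2.88 in the joint and 0.294 in the lung (4.24 and 0.548). Pgam1 stood at 3.42 in the joint and 0.429 in the lung (5.02 and 0.801). These 3 genes encode enzymes of the middle and lower steps of glycolysis. Bnip3 stood at 1.24 in the joint, 0.131 in the lung and 0.485 in the peritoneum (1.83, 0.245 and 0.912 with TMM factors). Vegfa lay on opposite sides in the joint and the peritoneum as well, at 2.21 and 0.522 (3.25 and 0.982 with TMM factors), but its interval for the peritoneum, 0.257 to 1.01, included 1.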

How the results depend on the processing

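Between bone marrow and blood, 7 members were called (21.9% of those tested, beside 21.7% of all genes), 1 with no replicate block (2.1% of all genes), and 0 to 17 on leaving out 1 library (0 without either blood library, 11 without bone marrow of run 1, beside 19.8% of all genes, and 17 without either spleen library, beside 28.6% to 30.0%). Between spleen and blood, 0 were called, beside 0.0512% of all genes, and this number changed on leaving out some of the libraries. Between bone marrow and spleen, 1 was called, against 0 with no replicate block, 0 with DESeq2, 2 with no filter on low counts and 0 to 10 on leaving out 1 library (10 without spleen of run 1, beside 14.3% of all genes, and 4 without bone marrow of run 1, beside 8.97%). For bone marrow against spleen, DESeq2 called 0 of 27 members, beside 5.18% of all genes. With no filter on low counts 2 of 33 members were called, beside 2.05% of all genes. Added after seeing the data, leaving out cells with other types' markers gave 0 there, and genes listed in all 6 tables gave 3 of 27, beside 4.86% of all genes. Between arthritic and healthy blood, 2 of 28 members were at least 2-fold apart (5.36% of all genes), against 4 with TMM factors (3.94% of all genes), 5 of 29 by the mean over cells (8.24%), 0 of 22 at a mean of at least 50 CPM (3.18%), 7 at 1.5-fold (25% of the members and 27.1% of all genes) and 1 of 25 with the mean of 20 CPM taken over the 4 conditions other than the joint (5.15%), the last added after seeing the data. Between lung and peritoneum the 5 of 28 (15.8% of all genes) became 3 of 22 at 50 CPM (12.9%) and 9 of 28 at 1.5-fold (36.0%). With TMM factors the median log2 ratio of the enzymes was 0.80 for joint to lung, 0.54 for joint to peritoneum and 0.29 for lung to healthy blood, the last reversed from -0.61. The cause of these changes was not tested. Of 104 results for single genes under alternatives in the healthy tissues, 71 kept direction and side of the threshold and 33 kept direction alone. The peritoneum had the fewest UMIs, 942688. One pool per condition leaves the spread between mice unmeasured.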
